A study of Homo sapiens with 32 samples.

Results

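The regions described here are those where, among 3 pancreatic cancer lines, peaks of the transcription factor HNF4α were called in Panc10.05 cells alone. They were selected on peak presence: peaks of the 14 lists made with a pan-HNF4α antibody were merged wherever they overlapped by 1 bp, and a merged region was kept if all 4 Panc10.05 lists held a peak in it and none of the 4 BxPC3 or 6 ASPC1 lists did. Of 78074 merged regions, 18704 had a peak in all 4 Panc10.05 lists, and 2456 of those, 13.1%, had none in the other lines. The other 16248 regions of all 4 Panc10.05 lists are called shared regions below, and 2325 of them had a peak in all 14 lists.

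HNF4α is a nuclear receptor that binds DNA as a homodimer at direct repeats and drives gut, liver and pancreatic epithelial gene programs. Its gene has a pair of promoters: P1 transcripts, such as α2, encode an N-terminal activation domain that P2 transcripts, such as α8, lack. P1 isoforms dominate in adult liver, and P2 isoforms are known from stomach and pancreas. Both kinds share the same DNA-binding domain.

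Panc10.05, BxPC3 and ASPC1 are established human pancreatic ductal adenocarcinoma lines. Panc10.05 cells carried doxycycline-inducible HNF4α and were given 25 ng/mL doxycycline for P1-α2 or 12.5 ng/mL for P2-α8, with 2 libraries each, so isoform and dose cannot be told apart in this line. BxPC3 cells were induced with 500 ng/mL for either isoform, again with 2 libraries each. ASPC1 cells carried no label of an induced isoform and were subjected to CRISPR interference with guides labelled sgP1 or sgP2, against the P1 or P2 isoforms, or sgNC, with 2 pan-HNF4α libraries each. All Panc10.05 and BxPC3 libraries therefore come from cells with induced HNF4α, whereas the ASPC1 lists carry no doxycycline label. Cells were fixed with disuccinimidyl glutarate and formaldehyde, and the labels do not say whether replicates were separate cultures or whether a line was 1 clone. These are peak lists, with no expression data, so the identity of the cells was not checked against marker genes.

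In Panc10.05, 24828 and 34146 peaks had been called with P1-α2, against 39111 and 33646 with P2-α8. The BxPC3 lists held 12681 to 41808 peaks and the ASPC1 pan lists 11686 to 24295. Read depth is not in these lists. The lowest −log10 q was about 8 in the Panc10.05 and BxPC3 lists and about 2 in the ASPC1 lists, so ASPC1 peaks barred a region at a looser threshold. Each line came from a library series of its own, so line and series cannot be told apart.

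Just outside the rule lay 2345 regions with a peak in 3 Panc10.05 lists and no other line, of which 1636 were missing from the P1-α2 replicate 1 list alone, the shortest of the 4. Another 1578 regions were in all 4 Panc10.05 lists and in exactly 1 other list, and in 803 and 396 of them that list was BxPC3 P1-α2 replicate 1 or replicate 2. Without Panc10.05 P1-α2 replicate 1 the rule gave 4093 regions. A reciprocal overlap of 50% in place of 1 bp gave 4467, and cutting all 14 lists to the shortest by fold enrichment gave 840 of 5532. Most members stood apart from the other lines' peaks by more than a shifted edge: the median distance to the nearest BxPC3 or ASPC1 peak was 14428 bp, 120 members (4.89%) had one within 1 kb, and 188 (7.65%) had none within 100 kb.

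Promoter sequences that overlap these regions are shown first. A window can overlap a region without lying beneath its summits. RefSeq windows (GRCh38.p14) of 250 bases before to 50 after a start were used. Of 35116 windows, 137 overlapped a member, and 34 held all 4 Panc10.05 summits. Of the 137, 5 (3.65%) held CAAAGTCCA or CAAAGGTCA, 2 short spellings of part of the HNF4 direct repeat, on either strand. A match alone does not show a full repeat. The share was 59 of 2387 windows over shared regions (2.47%) and 278 of all 35116 windows (0.792%). The 4 matches that lay before the start are printed below as the 250 bases upstream, 5′ to 3′ on the gene's strand, with the match in capitals. RTP3, a receptor transporter protein, is at chr3:46497726-46497975 on the plus strand. EGFL7, a secreted vascular factor, is at chr9:136658606-136658855 on the plus strand. ZNF606, a zinc finger repressor, is at chr19:58002821-58003070 on the minus strand. KDM6A, a histone H3 lysine demethylase, is at chrX:44872938-44873187 on the plus strand.
RTP3: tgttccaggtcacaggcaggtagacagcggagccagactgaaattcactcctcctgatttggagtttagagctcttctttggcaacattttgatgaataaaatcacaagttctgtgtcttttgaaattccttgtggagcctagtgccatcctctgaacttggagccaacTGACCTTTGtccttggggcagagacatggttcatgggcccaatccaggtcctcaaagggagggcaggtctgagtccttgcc
EGFL7: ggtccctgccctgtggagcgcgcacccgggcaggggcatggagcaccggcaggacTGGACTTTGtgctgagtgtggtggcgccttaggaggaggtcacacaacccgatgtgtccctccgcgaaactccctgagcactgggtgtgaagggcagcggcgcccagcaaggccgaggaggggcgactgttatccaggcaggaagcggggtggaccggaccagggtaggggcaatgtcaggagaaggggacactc
ZNF606: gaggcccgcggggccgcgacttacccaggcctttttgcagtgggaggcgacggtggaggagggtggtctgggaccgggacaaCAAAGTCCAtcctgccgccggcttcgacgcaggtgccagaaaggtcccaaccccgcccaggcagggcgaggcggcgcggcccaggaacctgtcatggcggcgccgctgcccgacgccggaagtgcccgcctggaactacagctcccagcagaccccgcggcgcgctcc
KDM6A: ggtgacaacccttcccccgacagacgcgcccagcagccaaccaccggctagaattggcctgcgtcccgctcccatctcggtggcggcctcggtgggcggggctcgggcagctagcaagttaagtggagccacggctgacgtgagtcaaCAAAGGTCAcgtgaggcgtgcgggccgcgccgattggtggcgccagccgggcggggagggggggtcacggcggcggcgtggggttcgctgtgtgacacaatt

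At RTP3 the 4 Panc10.05 summits lay between -70 and -52 bases from the start, next to the match whose first base is at -81. The RTP3 region (chr3:46497400-46498277) had fold enrichments of 24.7 and 29.9 with P1-α2 and 23.7 and 22.7 with P2-α8. At EGFL7 the summits lay between -239 and -192 and the match began at -195. Fold enrichments there were 11.02 and 16.6 with P1-α2 and 12.9 and 15.6 with P2-α8, lower than at RTP3 in every library. At ZNF606 and KDM6A all 4 summits fell outside the window, so the printed letters are not those beneath the summit. The KDM6A region (chrX:44872252-44873052) also ended before its match, so that match lay in the window but outside the member. The fifth match was at FAM230H, a noncoding gene on chromosome 22 with closely related copies nearby, and lay 17 bases after the start.

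Other spelled motifs in the windows over members and over shared regions were read on both strands as well. The KLF letters GGGCGGG were in 51.1% and 51.8% of them, against 33.1% of all windows, and the AP-1 letters TGANTCA in 8.03% and 9.09%, against 7.71%. The FOXA letters TGTTTAC were in none of the 137 windows over members, 2.85% over shared regions and 3.42% of all. The TEAD letters ACATTCC were in 10 of the 137 windows over members (7.30%), 3.48% over shared regions and 3.46% of all. The ETS letters CCGGAAGT were in 6 (4.38%), 7.67% and 4.14%. The GATA letters AGATAA were in 9 (6.57%), 5.87% and 10.3%. GC content was alike, with medians of 64.3% over members and 64.7% over shared regions. Matches are descriptions of these windows and not of the whole set, since 101 members touched a window.

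Members were mostly weaker peaks than shared regions. The authors' fold enrichment of each region was ranked within a library among the 18704 regions of all 4 lists, as a percentile on which 100 is the strongest. The median percentile of members was 30.7 and 31.1 in the P1-α2 libraries and 41.7 and 42.1 in the P2-α8 libraries, below that of shared regions (51.3 to 53.4) in each. Ranked among all peaks of a list, members had medians of 40.0 and 56.1 with P1-α2 and 65.2 and 61.1 with P2-α8. Shared regions had 62.9 and 73.1, then 72.5 and 68.9. The median fold enrichment of members was 11.9 and 15.9 with P1-α2 and 14.9 and 13.2 with P2-α8. Peak width followed: 401 and 494 bp with P1-α2 and 551.5 and 491.5 bp with P2-α8, against 522 and 621 bp, then 621 and 562 bp, for shared regions. Membership itself depended on peaks being called, so these levels are a description of what the rule chose.

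Summits coincided about as closely in members as in shared regions. Those of the 4 libraries spanned a median of 58 bp in members and 56 bp in shared regions, and 998 members (40.6%) had all 4 within 50 bp. In 2406 members (98.0%) each list held a single peak. Between the weakest and the strongest band of 20 percentile points, the median span went from 90 to 41 bp in members and from 103 to 39 bp in shared regions.

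**Figure D1:**
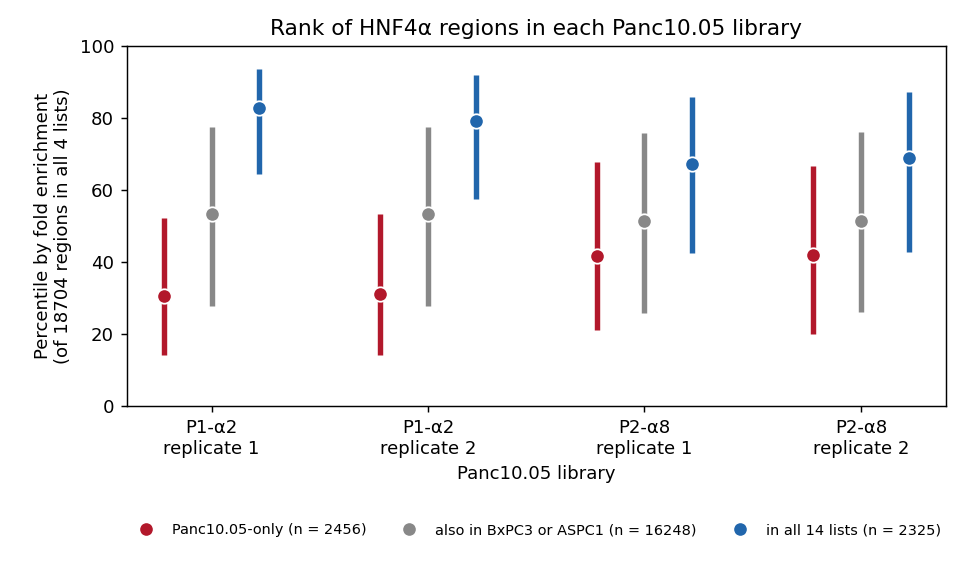
Percentile by fold enrichment (y axis, 0 to 100) in each Panc10.05 library (x axis). Points are medians and bars the middle 50% of regions. The red points for Panc10.05-only regions stand at 30.7 and 31.1 with P1-α2 and at 41.7 and 42.1 with P2-α8, and the blue points for regions in all 14 lists move the other way, from 82.8 and 79.0 to 67.3 and 68.7.

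The isoform comparison asks whether P1-α2 and P2-α8 occupy Panc10.05-only regions to unequal degrees. The rule did not compare the Panc10.05 isoforms, but it is not neutral to isoform, since the BxPC3 lists that bar a region were longer with P1-α2 than with P2-α8. With the BxPC3 P2-α8 lists alone barring, the difference given next was 3.20 percentile points. Mean median percentiles were 30.9 ± 0.268 (SD, n = 2) with P1-α2 and 41.9 ± 0.256 (SD, n = 2) with P2-α8, a difference of 11 percentile points with no overlap between the libraries. The two-sided exact permutation test over the 4 libraries gave p = 0.333, which is the smallest value 2 against 2 allows. An exact test over sign changes in a replicate block gave p = 0.50 for the same difference, again its smallest. Regions in all 14 lists had means of 80.9 and 68.0, a difference of -12.9.

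A region was said to lean to an isoform when both of its libraries ranked it above both libraries of the other isoform. Of the 2456 members, 910 (37.1%) leaned to P2-α8, against a background of 24.2 percent over the 18704 regions. Another 338 members (13.8%) leaned to P1-α2, against 25.4 percent. The remaining 1208 leaned to neither. Gaps of at least 10 percentile points toward P2-α8 were found in 565 members (23.0%), against 12.9 percent of the 18704 regions. Toward P1-α2 they were found in 147 members (5.99%), against 12.6 percent. Because ranks within a library are relative, a lean of members one way is met by a lean of the pooled shared regions the other way. Of these, 22.2% leaned to P2-α8 and 27.2% to P1-α2. The shared regions most like members leaned as members did. In exactly 1 other list (n = 1578) the shares were 31.1% and 16.3%. With BxPC3 but no ASPC1 peak (n = 7113) they were 30.0% and 19.4%, and with ASPC1 but no BxPC3 peak (n = 1339) 28.8% and 20.1%. Regions in all 14 lists had 8.65% and 44.8%.

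The share of members leaning to P2-α8 was larger among stronger members. It was 23.3% of the 493 members with a mean percentile under 20, then 32.3%, 44.6% and 47.2% in the next bands of 20 points, and 59.3% of the 123 members at 80 or above. The share of the pooled shared regions leaning to P2-α8 stayed between 18.6% and 24.6% in those bands. Members leaning to P1-α2 went from 14.6% in the lowest band to 8.13% in the highest. The size of the difference did not follow the same order: P2-α8 minus P1-α2 in median percentile was 2.16 points in the lowest band, then 6.05, 15.6 and 14.9, and 7.26 in the highest.

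**Figure D2:**
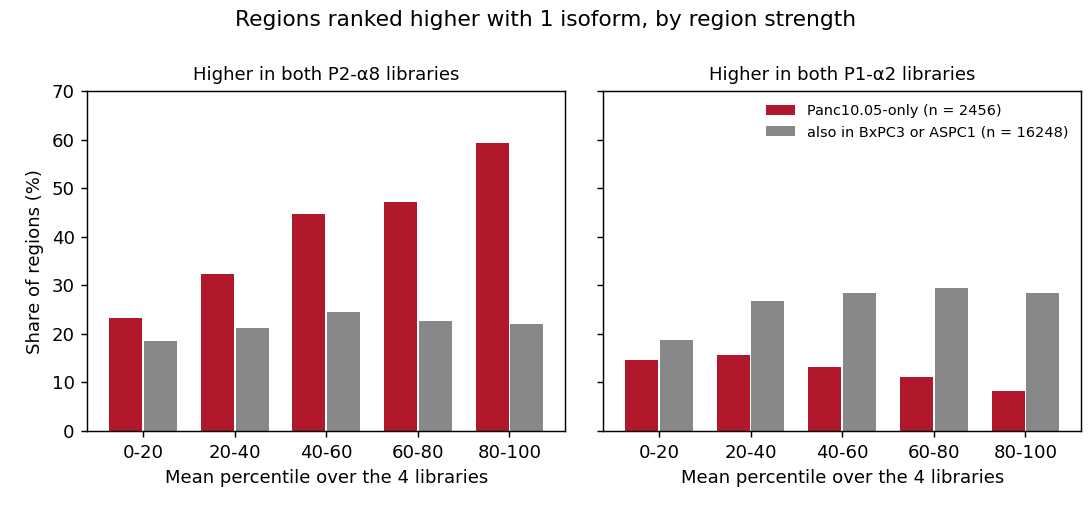
Share of regions (y axis, percent) that both libraries of 1 isoform ranked above both of the other, in bands of mean percentile over the 4 libraries (x axis). Red bars for Panc10.05-only regions reach 59.3% toward P2-α8 in the highest band, while grey bars for shared regions stay between 18.6% and 24.6%.

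The lists that bar a region are themselves unequal, since both BxPC3 P1-α2 lists (41808 and 33737 peaks) are longer than both BxPC3 P2-α8 lists (12681 and 14666). The lean was therefore recomputed with fewer barring lists, in alternatives chosen after the values were seen. With ASPC1 lists alone, 31.8% of 9569 regions leaned to P2-α8 and 18.0% to P1-α2. With BxPC3 lists alone, the shares of 3795 regions were 34.2% and 16%. With the BxPC3 P1-α2 lists alone, the shares of 3893 regions were 34.2% and 16%. With the BxPC3 P2-α8 lists alone, they were 28.4% and 20.9% of 9675 regions, and the difference in median percentile was 3.20 points. P2-α8 stayed the larger share in each, and the gap was smallest when only P2-α8 lists barred.

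The strongest members, by mean percentile over the whole lists, were near genes of several kinds. Of the 12 highest, 7 were inside a protein-coding gene, beside 48.0% of all members. Toward P2-α8 7 leaned and toward P1-α2 none, beside 24.2 and 25.4 percent of the 18704 regions. Of the 123 members with a mean percentile of 80 or above, 59.3% and 8.13% leaned so. These 7 leans were narrow, as all ranks were near the top. Their gaps ran from 0.655 percentile points at MAGI3 to 3.93 at SHFL, all under the gap of 10 points used above. The first lay in CDH23, a cadherin of sensory hair cells (chr10:71740076-71740949), with fold enrichments of 57.9 and 68.5 with P1-α2 and 36.8 and 43.2 with P2-α8. Its percentiles overlapped between isoforms, at 98.2 and 97.4 against 94.6 and 98.5. The MAGI3 region, in the gene of a junctional scaffold (chr1:113480079-113480848), had fold enrichments of 38.3 and 72.6 with P1-α2 and 49.4 and 48.7 with P2-α8. It ranked at 93.0 and 97.9 against 98.6 and 99.2, so both P2-α8 libraries placed it higher.

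PGLYRP2, a peptidoglycan amidase secreted by the liver, held a region (chr19:15468704-15469724) with fold enrichments of 45.5 and 49.2 with P1-α2 and 54.6 and 60.7 with P2-α8. In SHFL, an inhibitor of ribosomal frameshifting, the region (chr19:10089689-10090603) had 37.1 and 54.4 against 53.0 and 41.8, and it ranked higher in both P2-α8 libraries. DEPTOR, an inhibitor of mTOR, held a region at percentiles of 97.4 and 92.3 with P1-α2 and 99.6 and 98.2 with P2-α8. Regions near ZHX2, a zinc finger and homeobox repressor, CD248, a stromal cell surface glycoprotein, and LAMB2, a laminin chain, leaned to P2-α8 as well. Those of LRPAP1, KCNT1, PCDH7 and TBC1D9B did not separate the isoforms. The PCDH7 region (chr4:33299560-33300298) lay 2153129 bp from that gene, its nearest coding gene.

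The members with the widest isoform gaps ranked near opposite ends. In ZFHX3, a homeobox factor of neural and muscle development, the region (chr16:73144929-73145624) lay 829 bp from a start, with fold enrichments of 9.44 and 10.5 for P1-α2 and 30.0 and 28.4 for P2-α8. Its percentiles were 14.1 and 8.26 against 89.0 and 91.1. The region in SARDH, sarcosine dehydrogenase (chr9:133714337-133716577), ranked at 4.35 and 2.00 with P1-α2 and 83.1 and 91.3 with P2-α8. The regions nearest to MRPL15, PTP4A3 and C8orf90 ranked at most at 27.9 with P1-α2 and at least at 91.1 with P2-α8.

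In the other direction the gaps were narrower. The BCAS3 region (chr17:61294594-61295196) had fold enrichments of 23.2 and 42.0 with P1-α2 and 10.95 and 6.76 with P2-α8. It ranked at 76.0 and 88.0 against 17.8 and 2.90. The MVB12B region (chr9:126459062-126459728) ranked at 86.5 and 79.2 with P1-α2 and 23.6 and 26.6 with P2-α8. DUSP5, a phosphatase of ERK, had its region 16160 bp away, at percentiles of 68.5 and 71.5 against 21.7 and 10.3. Regions nearest to IMPG1 and TOMM7 completed this group, at 48.7 to 72.9 with P1-α2 and 1.18 to 8.08 with P2-α8. These regions were picked for their gaps, so the values describe the extremes of the set.

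**Figure D3:**
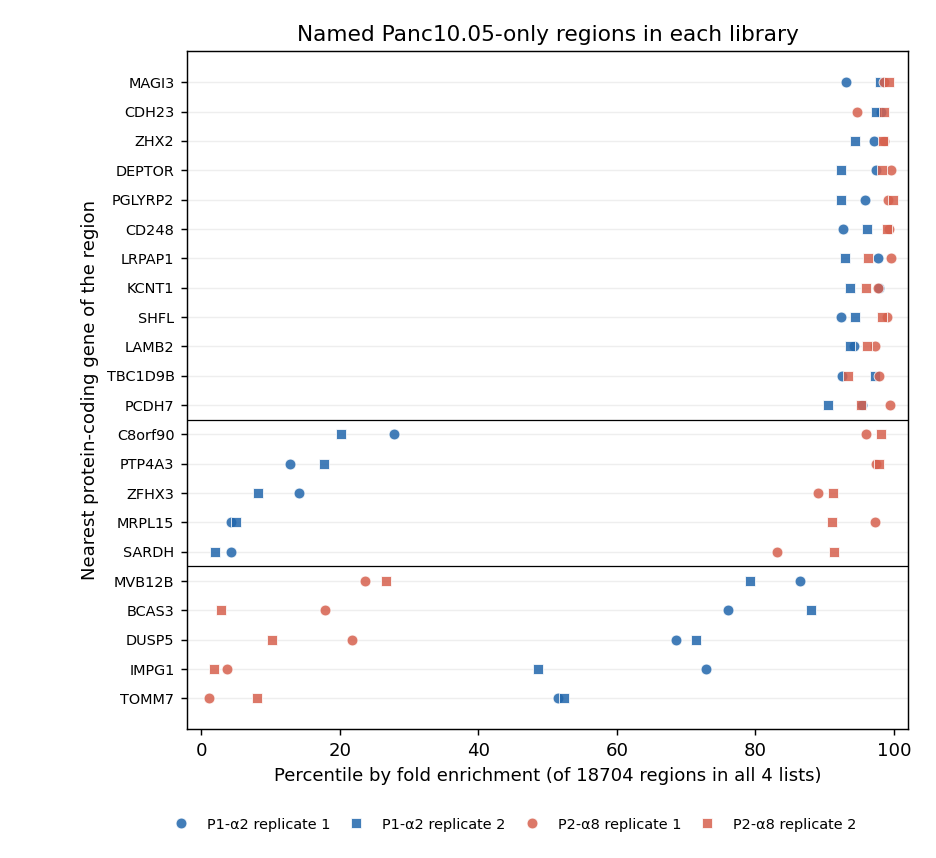
Percentile by fold enrichment (x axis) of 22 named Panc10.05-only regions (y axis, by nearest gene) in each library. The upper block holds the 12 strongest members, all above 90 in every library, and the lower blocks hold the 5 widest gaps toward P2-α8 and toward P1-α2.

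Members lay farther from gene starts than shared regions. On the chromosomes with starts in the promoter table, 90 of 2301 members (3.91%, 95% exact binomial interval 3.16 to 4.79) were within 1 kb of a protein-coding start. Among shared regions the share was 9.81% (9.35 to 10.3), and among regions found in all 4 BxPC3 lists and no other line it was 1.16% (0.603 to 2.02). Regions found in all 6 ASPC1 pan lists and no other line had 9.11% (7.28 to 11.2), close to shared regions. Median distance to a start was 41670 bp for members and 32278 bp for shared regions. The gap was seen in every strength band, from 7.87% against 19.3% in the lowest to 0 of 117 members against 6.98% in the highest. These intervals cover counting error only.

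Position relative to whole genes differed less. Members lay inside a protein-coding gene in 48.0% of cases and shared regions in 50.6%, and 15.9% of members against 11% were over 100 kb from any. The lean toward P2-α8 was present at all distances from a start, at 40.0% of 90 members within 1 kb, 38.4% of 1162 members up to 50 kb and 35.0% of 1049 members beyond. Shared regions gave 23.1%, 22.4% and 21.3% at the same distances. Members within 1 kb of a start were weaker, with a median mean percentile of 26.3 against 36.8 and 38.4 farther out. So were shared regions, at 39.9 against 51.0 and 51.0.

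Among members at starts of coding genes were CYP1A1, an aryl hydrocarbon receptor target that oxidises xenobiotics, and CYP4F2, a vitamin and fatty acid hydroxylase. The CYP1A1 region (chr15:74725246-74725908) had fold enrichments of 16.7 and 24.5 with P1-α2 and 12.1 and 12.8 with P2-α8, and it ranked higher in both P1-α2 libraries. The CYP4F2 region (chr19:15897554-15898335) had 18.0 and 14.8 against 20.3 and 19.7, and it ranked higher in both P2-α8 libraries. A peak of another line lay 131 bp from the CYP1A1 region, so that region sits at the edge of the rule.

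Chromosomes contributed unevenly. Chromosome 4 held 197 members among 834 regions of all 4 Panc10.05 lists (23.6%) and the X chromosome 72 of 327 (22.0%), against 13.1% over all chromosomes. Chromosome 15 had the smallest share, 28 of 429 (6.53%), followed by chromosome 13 with 18 of 235 (7.66%).

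**Figure D4:**
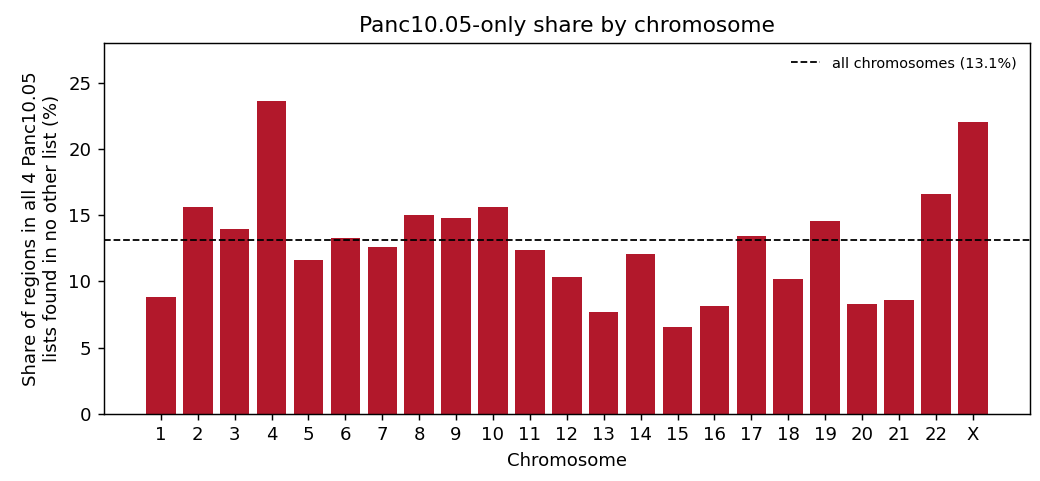
Share of the regions in all 4 Panc10.05 lists that no other line held (y axis, percent) on each chromosome (x axis), without chromosome Y and its 6 regions. The dashed line marks 13.1%, and the bars of chromosome 4 and X stand highest at 23.6% and 22.0%.

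Members were next to one another more often than shared regions were next to members. The nearest other region of all 4 Panc10.05 lists was a member for 580 members (23.6%) and for 1824 shared regions (11.2%). The densest 1 Mb window, on chromosome 10 from 102000001 to 103000000, held 12 members among 29 regions. They were nearest to SUFU, an inhibitor of Hedgehog signalling, with 3, to CYP17A1, a steroid hydroxylase, and GBF1 with 2 each, and to 5 further genes with 1 each. On chromosome 4 the window from 3000001 to 4000000 held 8 members among 12 regions (66.7%), 4 of them nearest to ADRA2C, an adrenergic receptor. The BxPC3 lists held 4 peaks in that window and the ASPC1 lists 40.

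Members were mostly alone between the other lines' peaks. Of 2165 stretches between other-line peaks that held a member, 1938 held only 1 member, and 1 held 8. Those 8 were at NBPF19 (chr1:149489104-149537149), with mean percentiles of 16.8 to 38.6, and 2 of them leaned to P1-α2, beside 13.8% of all members. NBPF and FAM90A genes belong to families of near-identical copies, so the regions at NBPF19, NBPF20 and FAM90A26 are uncertain. How reads were placed there was not tested. A stretch of 1587 kb on chromosome 2, nearest to the zinc transporter SLC39A10, held 4 members, and the strongest of them ranked at 87.7 and 93.3 with P1-α2 and 98.8 and 99.5 with P2-α8.

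Members were nearest to 1927 of 20033 protein-coding genes, 9.62 percent, of which 1569 had 1 member. Shared regions were nearest to 8085 genes, 40.4 percent. Beside NBPF19 with 8, the genes with the most members were GLIS3 and ZMIZ1, with 7 each. GLIS3 is a zinc finger factor of pancreatic beta cells and ZMIZ1 a coactivator. At ZMIZ1, 3 members leaned to P2-α8 and 2 to P1-α2, and mean percentiles ran from 40.8 to 93.2. At GLIS3, 1 leaned to P2-α8 and 2 to P1-α2, with mean percentiles of 20.2 to 57.0. Over all members, 37.1% leaned to P2-α8 and 13.8% to P1-α2.

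HDAC4, a class IIa histone deacetylase, had 6 members and no shared region nearest to it. Toward P2-α8 5 of the 6 leaned, beside 37.1% of all members, with gaps of 3.21, 5.75, 8.04, 33.9 and 36.1 percentile points. The strongest of these leaning members (chr2:239408465-239409084) ranked at 80.5 and 67.5 with P1-α2 and 86.2 and 92.2 with P2-α8. ATXN7L1 also had 6 members, all inside the gene, with 1 leaning each way. TNS1, a focal adhesion protein, had 5 members. Of these, 4 leaned to P2-α8, by 0.524, 3.46, 39.8 and 41.0 percentile points, and none to P1-α2. Its strongest member (chr2:218012203-218012849) ranked at 79.0 and 89.2 with P1-α2 and 83.3 and 78.0 with P2-α8, with overlap between isoforms. COL26A1, a collagen gene, held all 5 of its members inside the gene, at mean percentiles of 25.4 to 94.5. The gene MYC had 5 members and 29 shared regions nearest to it, so most of its Panc10.05 regions were shared.

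Gene lists were read by the share of their genes nearest to a member, beside 9.62 percent of all genes. Among classical and gastric genes of pancreatic cancer none of 30 had a member. A shared region was nearest to 13 of them (43.3%), beside 40.4 percent of all genes. The basal and squamous list had 3 of 25 (KRT6A, KRT7 and TNS4), and the mesenchymal list 4 of 24, with TGFBR2 and COL5A2 the strongest. Lists of liver plasma proteins (3 of 37), lipid, bile acid and glucose metabolism (2 of 36), drug metabolism (3 of 33), pancreas development (3 of 33) and brush border and solute carriers (3 of 32) lay between 5.56% and 9.38%, near the background. Within them, CYP27A1, a bile acid hydroxylase, had its region (chr2:218816260-218817008) at 69.1 and 67.6 with P1-α2 and 94.7 and 88.9 with P2-α8. CES2, a carboxylesterase, ranked at 59.1 and 86.6 against 81.2 and 81.2.

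The 2 largest shares were in the neuronal and growth control lists. Neuronal adhesion and axon guidance genes had a member in 16 of 44 (36.4%), with a median gene span of 383 kb against 24.1 kb for all genes, and 32 of the 44 had a shared region too. The part of gene length in that share was not tested. Of the 22 members of this list, 10 leaned to P2-α8 and 1 to P1-α2, beside 37.1% and 13.8% of all members. PLXNA4, a semaphorin receptor, had 4, the strongest at 70.1 and 11.7 with P1-α2 and 88.4 and 80.8 with P2-α8. Growth control genes had a member in 10 of 35 (28.6%), with a median gene span of 40.6 kb. A shared region was nearest to 22 of the 35 (62.9%), beside 40.4 percent of all genes. The list's ERBB4, a neuregulin receptor, had a region (chr2:212010125-212010889) at 81.7 and 53.0 with P1-α2 and 98.6 and 95.3 with P2-α8.

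Transcription factor lists lay between. Endoderm and gut factors had 6 of 25 (EHF, GATA6, GRHL2, HNF4G, KLF4 and SOX9), and 18 of the 25 (72%) had a shared region. The SOX9 region, 234256 bp from the gene, ranked at 79.5 and 55.6 with P1-α2 and 73.5 and 67.8 with P2-α8. Nuclear receptors had 9 of 45, of which NR0B1 and PGR had the strongest regions, and 28 of the 45 (62.2%) had a shared region. NR0B1, a corepressor, ranked at 89.6 and 95.2 with P1-α2 and 91.5 and 90.9 with P2-α8, without separating the isoforms. NR3C2, the mineralocorticoid receptor, ranked at 60.3 and 85.4 against 90.9 and 91.2 and leaned to P2-α8. Wnt and stem cell genes had 7 of 43, and integrins, laminins and junction genes 5 of 37. Shared regions were nearest to 24 of the 43 (55.8%) and 28 of the 37 (75.7%). Over all protein-coding genes, 9.62 percent had a member and 40.4 percent a shared region. All 4 lists of this paragraph thus had more genes with a shared region than that background.

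**Figure D5:**
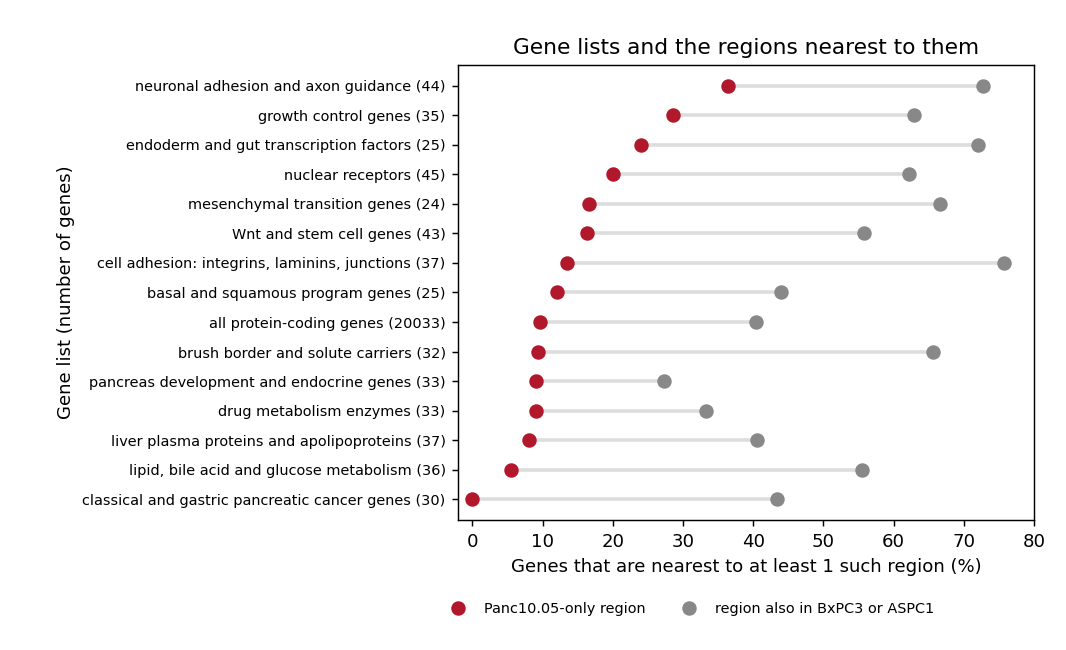
Share of genes in each list (y axis, number of genes in brackets) that are the nearest protein-coding gene of at least 1 region (x axis, percent). Red points give Panc10.05-only regions, from 0 of 30 classical and gastric genes to 36.4% of neuronal adhesion genes, and grey points give shared regions.

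The P1-specific antibody gave almost no peaks at members. Its lists come from ASPC1 cells, whose pan-HNF4α peaks the rule already bars, so few were possible. The sgP2 lists (5200 and 3916 peaks) overlapped 2 and 0 members, and the sgNC lists (697 and 260 peaks) 1 and 0. The 3 members were nearest to CFAP65, CHD1 and RPH3AL. Of the 2325 regions in all 14 lists, 76.0% and 70.5% had a peak in the sgP2 lists and 19.1% and 8.47% in the sgNC lists.

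Among microRNA hairpins of RefSeq (GRCh38.p14), MIR631 and MIR3181 lay inside members, and the mature sequences are shown with the seed, bases 2 to 8, in capitals.
MIR631: aGACCUGGcccagaccucagc
MIR3181: aUCGGGCCcucggcgccgg
The MIR631 region (chr15:75353411-75354120) ranked at 62.6 and 61.4 with P1-α2 and 83.1 and 87.3 with P2-α8, and so leaned to P2-α8. The MIR3181 region (chr16:50741319-50742385) ranked at 0.0722 and 9.65 against 18.5 and 3.76, near the bottom of all libraries. The seeds of the pair differ.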

How the data were processed

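ChIP-seq peak lists of 18 libraries from 3 cell lines were used, and 14 input libraries were not used here. Per the submitters' processing notes, Bowtie2 (2.2.9) and MACS2 (2.2.7) were run, with the builds hg38 and mm10 named. As the lines are human, coordinates were taken as hg38, and RefSeq GRCh38.p14 gave gene spans, starts and promoter sequences. Each list gives, per peak, the authors' fold enrichment ratio, a −log10 p-value and a −log10 q-value, as deposited by MACS2, and the summit offset. Peaks were called per library, as the deposited lists are per library. Regions were merged at 1 bp overlap, the highest fold of a region's peaks was ranked within each library, and the nearest protein-coding gene (of 20033) was taken from the region's middle. The code was checked on simulated data and against bedtools 2.31.1. Python 3.11.15, pandas 2.3.3 and scipy 1.17.1 were used. The isoform difference was tested over the 4 libraries by exact permutation, and shares have 95% exact binomial intervals that cover counting error. Since nothing says that replicates were separate cultures, p-values measure only the spread between these libraries. The BxPC3 P2-α8 group follows the genotype label, as the titles name it differently.

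The members and gene lists were chosen with earlier results of these data known, so the lists are described by counts without a test. Named were the 12 strongest members, the 5 widest isoform gaps each way, the 8 genes with the most members with ties, up to 4 genes a list whose best member reached the members' median, and the 5 densest 1 Mb windows. From these, those that show the range are described; other genes, such as EGFL7, KDM6A, MIR631 or CFAP65, are named because a short list held them. The promoter table used here has no starts on chromosome 8, so 155 members there and their start distances were left out.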

Additional observations from a re-analysis of the deposited data

How the results depend on the processing

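The number of members moved to 4467 with a reciprocal overlap of 50% and to 840 with lists of equal length, and leaving out 1 of the 14 libraries gave 2466 to 4093, the highest without Panc10.05 P1-α2 replicate 1. Other thresholds (−log10 q of 8 or 20), a merge of the Panc10.05 lists alone, summits within 100 bp, a 1 kb margin and barring of P1-antibody peaks left the count within 1.5 times. The isoform difference kept its sign in every alternative run, from 3.20 with BxPC3 P2-α8 lists alone to 15.3 with lists of equal length, and from 9.78 to 10.9 without 1 Panc10.05 library, always at an exact permutation p = 0.333. In the replicate block it was 11, with an exact p = 0.50. Deviations of same-numbered libraries from their isoform mean, over members, had a correlation of 0.0118. With 2 libraries per isoform both replicate numbers give the same value, which cannot tell whether the samples were prepared as pairs.

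The share leaning to P1-α2 and to P2-α8 was 11.8% and 39.9% with lists of equal length (24.7% and 24% of all regions), 15.7% and 42.1% ranked by −log10 p (30.4% and 27.9% of all regions), 5.99% and 23.0% at a gap of 10 points (12.6% and 12.9%), 18.0% and 31.8% barred by ASPC1 lists alone, 16% and 34.2% by BxPC3 lists alone or by the BxPC3 P1-α2 lists alone, and 20.9% and 28.4% by the BxPC3 P2-α8 lists alone. Without 1 Panc10.05 library, where 3 libraries must separate in place of 4, it was 24.7% to 26.9% and 48.5% to 50.4%, against 37.2% to 39.2% and 35.9% to 36.8% of all regions. Alternatives on barring lists, left-out libraries in the leaning shares, thresholds and lists of equal length for the isoform results, and gene starts were added after seeing the data. With all genes of the table, 61.8% of members were inside a gene, 12.6% within 1 kb of a gene end and 2.2% over 100 kb away, and 3.91% were within 1 kb of a coding start, against 6.80% for gene ends. Counting every gene within 50 kb gave 17.3% of genes. The motif search around summits, with windows of 100 or 200 bp or shifted by 5 kb, was not run, since no genome sequence was used here. Read depth was not used and limits what absence of a peak shows.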
